A study of Mus musculus with 9 samples.

Results

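Short 5′ fragments of nuclear tRNAs, 14 to 24 bases long, were followed in mouse blood serum. A fragment was a distinct read sequence that met only nuclear mature tRNA references, started at their first base and had 14 to 24 bases, so that its length is also the position of its last base. By this rule 1871 of 41240 distinct sequences were members, with 21726 of 555585 tRNA reads, and 5505 sequences in all started at the first base of a nuclear tRNA. Serum came from week 20 of work on atherosclerosis in mice, which tested salvianolic acid B (SalB), a water-soluble phenolic acid of the root of Salvia miltiorrhiza. The 3 groups were mice on a normal diet, mice on a high fat diet and mice on a high fat diet given SalB, with 3 libraries each. The titles of the normal diet libraries carry the strain-like name C57. No source used here gives the strain of the other mice, or age, sex and SalB dose, so diet and strain cannot be told apart in comparisons with normal diet. Whether replicates came from different animals is not in the labels, and p-values thus measure the spread between the libraries alone, which could be technical.

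A tRNA folds into a cloverleaf, and its 5′ strand runs from the acceptor stem through the D-arm to the anticodon loop. The D-arm ends in the D-loop, an unpaired turn named for dihydrouridine, whose conserved pair of guanines packs against the T-loop and holds the folded tRNA together. Cuts in the anticodon loop give long 5′ fragments, known for their abundance in serum, whereas cuts in or beside the D-loop give the short class, often called tRF-5. Several RNases that cut single-stranded RNA are known to make such fragments, among them angiogenin and other members of the RNase A family, which cut after pyrimidines.

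The first 26 bases of 8 references are shown because the results turn on where fragments of these tRNAs end. The bases were rebuilt from the aligned reads, and capitals mark the conserved GG of the D-loop.
Val-CAC-2-1: gtttccgtagtgtagtGGttatcacg
Val-TAC-1-1: ggttccatagtgtagcGGttatcacg
Gly-GCC-2-1: gcattggtggttcagtGGtagaattc
Gly-GCC-1-1: gcatgggtggttcagtGGtagaattc
Gly-CCC-1-1: gcgccgctggtgtagtGGtatcatgc
Asp-GTC-1-1: tcctcgttagtatagtGGtgagtatc
Ser-AGA-1-1: gtagtcgtggccgagtGGttaaggcg
Tyr-GTA-1-1: ccttcgatagctcagctGGtagagcg

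Counted from the 5′ end, the first G of the pair stands at position 17 in 7 of these tRNAs and at position 18 in Tyr-GTA, which has an extra base before it. The bases on the Tyr line are those of Tyr-GTA-3-1 and Tyr-GTA-4-1, not those of Tyr-GTA-1-1 as labelled. Tyr-GTA-1-1 has T in place of the C at position 16. Gly-GCC-2-1 and Gly-GCC-1-1 differ in these 26 bases by T5G alone (the base of the first, its position, the base of the second). The Gly-GCC-2 5′ end is shared by Gly-GCC-2, -3 and -4 and, for the first 14 bases, by Gly-CCC-3 and -4, which differ from it by G15A. The Val 5′ end is shared by 7 Val-AAC and Val-CAC references and, through the first 21 bases of Val-CAC-2-1, by Gly-ACC-1, so that shorter Val fragments cannot be assigned to 1 tRNA. Reads that met several families made up 41.8% of short 5′ reads as a mean over libraries.

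The libraries held 28191 to 156333 tRNA reads and 892 to 8616 short 5′ reads, the most in SalB replicate 2. That library stood apart. Reads aligned to Ala tRNAs with a mismatch before their last base made up 27.7% of its short 5′ reads (2388 reads), against 0.112% to 2.64% in the other 8 libraries. The most abundant of them carried G2C or T6C relative to the reference, and their source was not tested. Confidence intervals of a library's shares reach at most 3.27 percentage points to either side (Wilson, 95%) for the end positions, end classes and last bases below, and cover counting error only. Of the 1871 sequences, 1164 were met in 1 library only and 65 in all 9.

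Short fragments were a minor part of serum tRNA reads. They took 2.52%, 2.92% and 3.79% of tRNA reads on normal diet, 3.28%, 3.16% and 3.30% under high fat diet, and 3.71%, 5.51% and 2.60% with SalB. Among reads that start at the first base of a nuclear tRNA, the short class took 20.7%, 15.9% and 16.4% on normal diet, 24%, 29.3% and 19.6% under high fat diet, and 31.5%, 38.3% and 22.1% with SalB. The SalB libraries all lay above the normal diet libraries, by 12.9 percentage points, and overlapped those on high fat diet. Over 18 exact permutation tests of shares (6 measures, 3 pairs of groups, two-sided), the smallest p that 3 against 3 allows is 0.1, met here, and the adjusted p was 0.3.

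The ends were not spread evenly along the D-arm. Over the 9 libraries, 24.8% of short 5′ reads ended at position 15, 15.1% at position 16, 11.8% at position 14, 11.5% at position 18 and 11.3% at position 23. Position 21 was the least used, with 1.03%, and positions 17, 19 and 22 held 5.38%, 3.49% and 3.91%. At some positions a few tRNAs gave a large part of the reads. The Val end gave 56.7% of the reads that stop at position 15 and 38.5% of those at 23, the 3 Ser ends 47.4% of those at 18, the Gly-CCC-1 end 33.6% of those at 14 and the Gly-GCC-1 end 36.3% of those at 20. As a mean over libraries position 16 was more mixed, with 14.7% of its reads from the Gly-GCC-2 end and 14.1% from the Asp end. These 2 shares differed by group. The Gly-GCC-2 end gave 3.01 ± 2.20% on normal diet, 1.74 ± 0.859% under high fat diet, and 62.1%, 13.2% and 42.5% in the SalB libraries. The Asp end gave 17.2 ± 13.8%, 22.5 ± 7.46% and 2.60 ± 1.99% in the same order of groups (SD, n = 3). Just outside the length limits, reads of 25 bases made up 2.40% of nuclear 5′ reads, against 1.00% at 24 and 2.87% at 14, and the files hold no read under 14 bases.

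**Figure D1:**
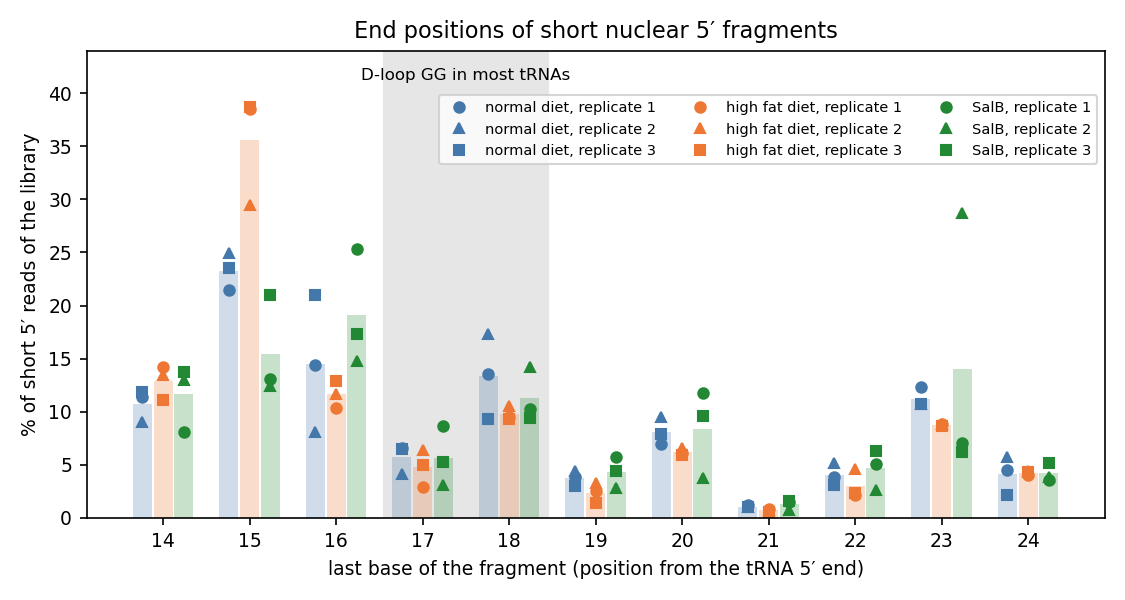
Share of each library's short 5′ reads (y axis, %) that end at each base position from 14 to 24 (x axis, counted from the 5′ end of the tRNA). Points are the 9 libraries, bars the means of 3, and the grey band is the GG at positions 17 and 18 of most tRNAs; position 15 is highest on high fat diet (29.5% to 38.7%), and at position 23 SalB replicate 2 stands alone at 28.7%.

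Set against the D-loop, about 1 read in 2 stopped before the GG: 52.2% as a mean over libraries. A further 16.8% ended on the GG, 15.3% after it inside the loop and 11.6% past the loop. The loop end was taken as the base before the first triplet that can pair with positions 11 to 13, a rule that placed that of Val at base 23. It left 30% of short 5′ reads without a single loop end, among them Val reads shared with Gly-ACC and reads of Ser and Leu tRNAs. Only those that end after the GG, 4.11% of reads and mostly from Ser and Leu tRNAs, could not be placed for this reason. With the loop ending at the first A after the GG, 19.4% ended past the loop and 11.6% inside it after the GG.

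As a mean over the 9 libraries, the commonest end stood at the same distance from the GG in tRNAs with the GG at position 17 and at position 18. In tRNAs with the GG at position 17 (19928 reads), position 15 was the commonest end, with 25.8 ± 10.8% of reads (SD over 9 libraries). In tRNAs with the GG at position 18 (1209 reads), it was position 16, with 37 ± 7.0%, and position 15 held 16.5 ± 5.83%. Both peaks lie 2 bases before the first G. Smaller sets were less clear. With the GG at 16 (98 reads) the commonest end was 17, past the first G, with 25.4 ± 17.1%. With the GG at 19 (121 reads) the ends at 17 and 19 held 24.8 ± 25.5% and 23.1 ± 22.3%. In the set with the GG at 17, SalB replicate 1 ended most often at 16 (24.4%, against 12.9% at 15). SalB replicate 2 ended there most often at 23 (30.5%, against 11.4% at 15). Without the Val end, over all other tRNAs, position 16 held 19.3% of reads and position 15 held 11.4%. The peaks 2 bases before the GG lean on a few tRNAs, Val with the GG at 17 and Tyr-GTA with it at 18. This is a description of these tRNAs and carries no test.

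Each tRNA had its own pattern of ends. Grouped by their first 14 bases, 61 different 5′ ends were seen, and the 20 that each held at least 1% of reads made up 93.5% of reads. The commonest end was at 14 to 16 in 12 of these 20, at 18 in 3, at 20 in 2 and at 22 to 24 in 3. It was the same base in all 9 libraries for 7 of them and in at least 7 libraries for 11. Some tRNAs gave nearly a single product. Ser-CGA fragments stopped at 18, on the second G of the pair, in 97.9% of reads, Tyr-GTA fragments at 16 in 86.1% and Val-TAC fragments at 15 in 84.2%. The other Ser ends also stopped at 18, Ser-GCT in 66.4% of reads and Ser-AGA with Ser-TGA in 53.9%. Gly-CCC-1 fragments stopped at 14 in 64.0%, the first base of the loop.

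Other tRNAs gave 2 products or a ladder. Val-AAC and Val-CAC fragments stopped at 15 (61.8%) or at 23 (23%), on either side of the GG. Without SalB replicate 2, where 90.6% stopped at 23 and 3.78% at 15, these means were 69.0% and 14.6%. Asp-GTC fragments stopped at 23 in 37.6% and at 16 in 19.1%. The Gly-GCC-1 and Gly-GCC-2 ends both had their commonest stop at 20, with 35.3% and 28%, the last base of the loop by the rule of the first A, and further stops at 18 and 22. The map of ends by tRNA shows these bands side by side.

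**Figure D2:**
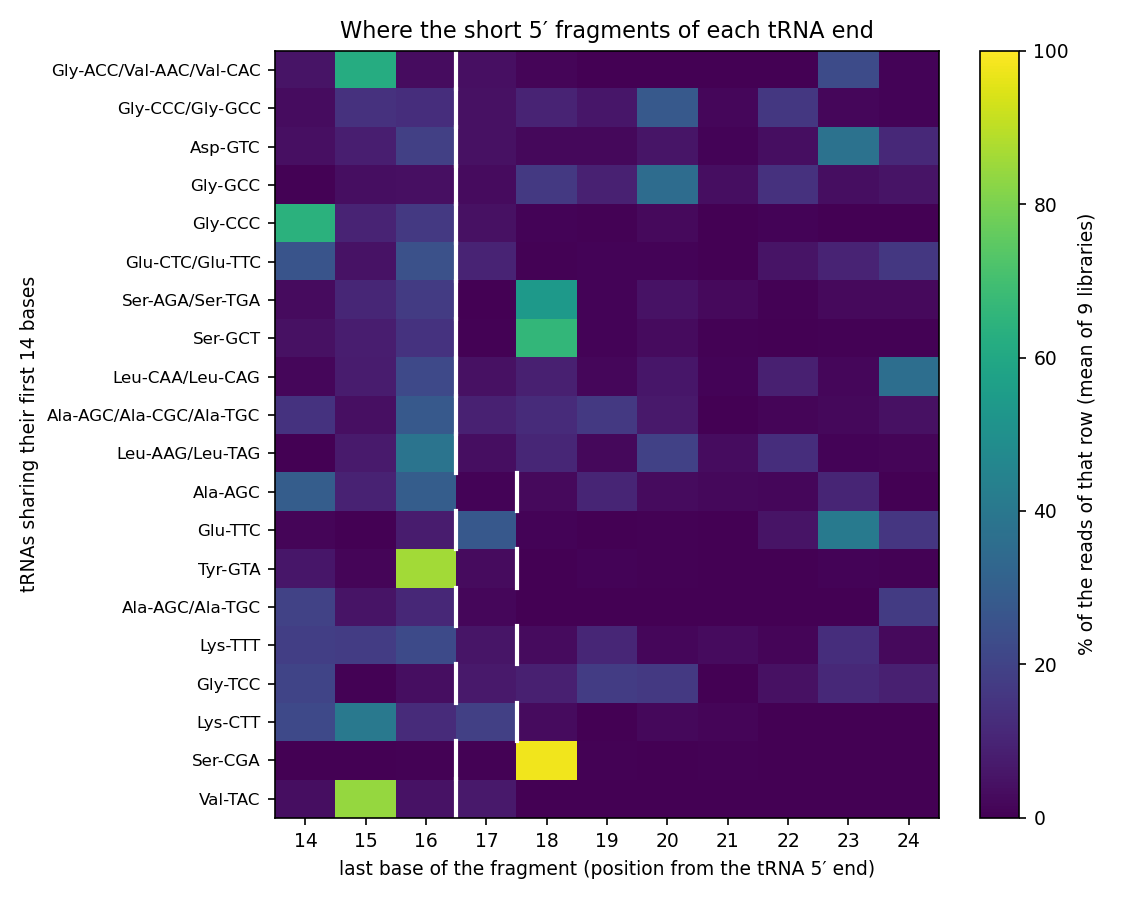
Heat map of the last base of short 5′ fragments (x axis, position from the 5′ end) for the 20 5′ ends with at least 1% of reads (y axis, most abundant at the top). Colour is the percentage of that row's reads, mean of 9 libraries, and the white line marks the left edge of the first G of the D-loop GG; the brightest cells are Ser-CGA at 18 (97.9%), Tyr-GTA at 16 (86.1%) and Val-TAC at 15 (84.2%).

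Ends were classed by the reference base at their last position. As a mean over libraries, 14.3% of reads had their mismatch there and so were classed by a base they do not carry. This reference base was most often G, in 45.5% of reads, then A in 24.8%, T in 18.6% and C in 9.91%. The commonest junction, between that base and the next base of the tRNA, was G then T, with 33.7%, followed by A then G with 15.6%. Ends after a reference pyrimidine made up 28.8 ± 6.46% of reads on normal diet, 21.6 ± 1.59% under high fat diet and 36.3 ± 10.6% with SalB (SD, n = 3). Pyrimidines took 34.1%, 36.1% and 30.8% of positions 14 to 24 in the references that the reads came from. Ends after pyrimidines were below that share in all 3 libraries on high fat diet and in normal diet replicates 1 and 2, and above it in normal diet replicate 3 (35.7% against 33.8%). With SalB they were above it in replicate 1 (36.4% against 29.5%) and replicate 2 (46.9% against 32.9%) and below it in replicate 3 (25.7% against 30.2%). In SalB replicate 2 the last reference base was C in 32.7% of reads, against 3.92% to 9.82% in the other libraries, and the Val fragment ending at 23 ends in C.

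The comparison of end positions across groups asks whether diet and SalB go with different cut sites. Before the GG ended 47.9%, 43.0% and 57.2% of short 5′ reads on normal diet, 63.4%, 55.0% and 63.4% under high fat diet, and 46.7%, 40.7% and 52.2% with SalB. The SalB libraries all lay below the high fat diet libraries, by 14.1 percentage points (exact permutation p = 0.1, the smallest possible, adjusted p = 0.3), and overlapped those on normal diet. With only reads that met a single family, which leaves out most Val reads, the SalB mean was 3.32 points above that on high fat diet, and with reads of 16 to 24 bases it was 2.89 points above. The mean end position was 17.7 ± 0.356 on normal diet, 17.1 ± 0.206 under high fat diet and 18 ± 0.582 with SalB, again without overlap between the last 2 groups. Past the loop ended 12.4 ± 0.552% on normal diet and 10.4 ± 1.02% under high fat diet, without overlap. With the first A as the loop end, the means were 19 ± 2.76% and 15.7 ± 0.797%, and those groups overlapped. No share passed after adjustment, and with 3 libraries against 3 none could.

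The shares by position were also taken without the Val and Gly-GCC-2 ends, which were chosen after their values were seen. Position 15 held 23.3 ± 1.77% of reads on normal diet, 35.6 ± 5.27% under high fat diet and 15.5 ± 4.77% with SalB. Of the reads at position 15, the Val end gave 70.1 ± 3.97%, 81.1 ± 1.74% and 19.1 ± 9.24%. Without the Val end, position 15 held 9.12 ± 0.621%, 10.5 ± 1.37% and 14.6 ± 3.60% of the remaining reads. Without the Val and Gly-GCC-2 ends it held 9.09 ± 0.474%, 10.3 ± 1.24% and 11.2 ± 4.28%, and position 16 held 18.9 ± 8.62%, 18.5 ± 2.37% and 19.2 ± 2.52%. The group means thus lay closer together at positions 15 and 16 once these 2 ends were set aside, but further apart at position 14. That position held 10.8 ± 1.49%, 12.9 ± 1.59% and 11.6 ± 3.07% of all short 5′ reads. Without the 2 ends it held 13.1 ± 1.41%, 17.2 ± 3.08% and 16.3 ± 4.43%. As shares of a whole, these values move against each other, and what lies behind the group differences was not tested.

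Single fragments were compared by limma-voom fitted over all 733 sequences abundant enough to test, 26 of which were short 5′ fragments holding 44% of short 5′ reads. The other 1845 members were too rare to test. Levels are reads per 1000000 reads of tested sequences, scaled by trimmed means of M values. A called fragment has a Benjamini-Hochberg adjusted p under 0.05 over the 733. SalB against normal diet and SalB against high fat diet share the SalB libraries, and both comparisons of high fat diet share its libraries, so they are not independent.

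High fat diet against normal diet called 0 of the 26 (0% of all 733 were called), also by limma on log2 values. An unadjusted p under 0.05 was met by 4 (11.9% of all 733), and the groups did not overlap for 6 (24.1% of all 733). The median log2 fold change was -0.04 over the members and 0.01 over all. The smallest p belonged to the 15-base Val fragment with a changed last base, G15A, whose levels were 422, 810.3 and 584 on normal diet and 1915, 1171 and 2281 under high fat diet (log2 fold change 1.58, SE 0.38, limma-voom adjusted p = 0.175). A fragment of Ala-AGC, ggggaattagctcAAA, in which the capitals are the bases of the D-loop, stood at 113, 85.3 and 55.6 and at 360.4, 130.1 and 289 (log2 fold change 1.76, SE 0.61, limma-voom adjusted p = 0.308). All high fat diet libraries were above all normal diet libraries for both. These values did not pass the test.

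SalB against high fat diet called 11 of the 26, or 42.3%, where 34.2% of all 733 were called. Of the members 7 rose (17.6% of all 733 rose) and 4 fell (16.6% of all 733 fell), an unadjusted p under 0.05 was met by 12 (45.3% of all 733), and the groups did not overlap for 13 (50.1% of all 733). Scaled to total tRNA reads alone, 4 rose and 8 fell, and the median of all 733 moved by -0.85 on the log2 scale. The median log2 fold change was -0.19 over the members and -0.15 over all. Some members that rose passed the abundance filter only through the SalB libraries, so the count of rises is not independent of their level there. The same filter was applied to all 733. These shares of members called are near those of all sequences, but the calls fell into 2 sets of tRNAs. The 7 that rose were all fragments of Gly-GCC 5′ ends, the 14-base one shared with Gly-CCC. The 4 that fell were all fragments of Val 5′ ends, and all but that of Val-TAC also met Gly-ACC. By length, 3 of the 13 tested fragments of 14 to 16 bases rose and 4 fell. Of the 8 of 17 to 21 bases 2 rose and 0 fell, and of the 5 of 22 to 24 bases 2 rose and 0 fell.

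**Figure D3:**
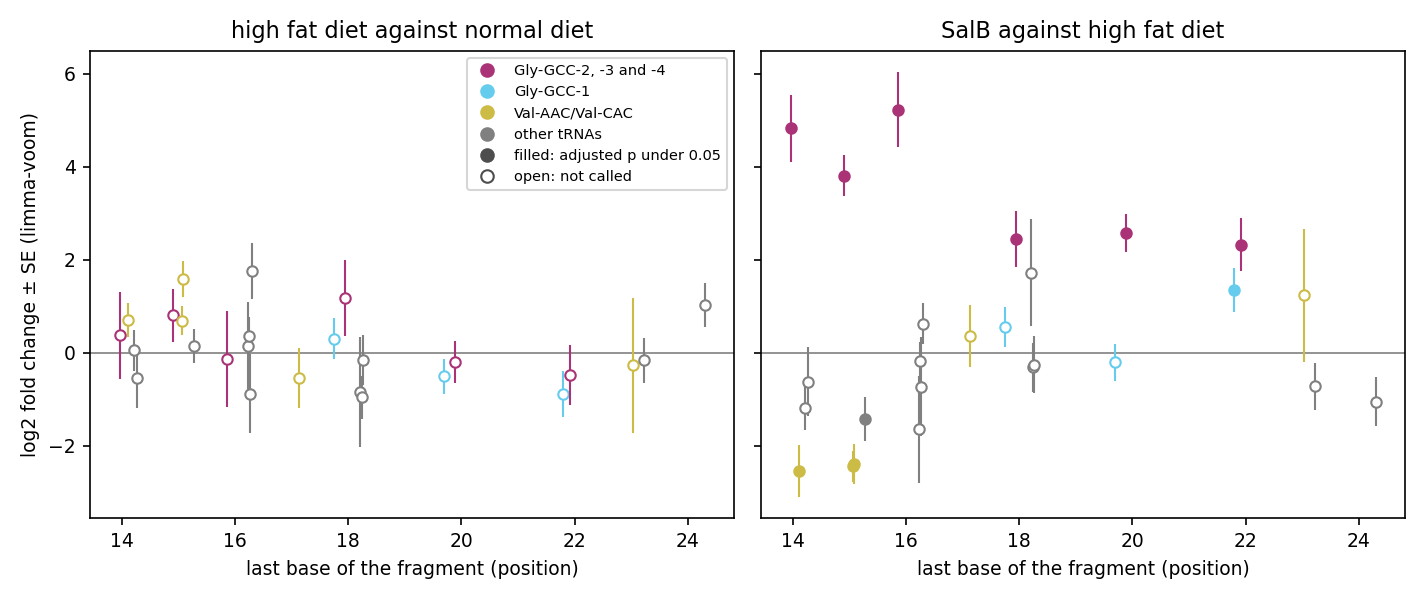
Log2 fold change with its standard error (y axis, limma-voom) of the 26 tested short 5′ fragments by the position of their last base (x axis, with small offsets to separate points), for high fat diet against normal diet (left) and SalB against high fat diet (right). Filled points have an adjusted p under 0.05: none on the left, and on the right 6 fragments of the Gly-GCC-2 end and 1 of the Gly-GCC-1 end above zero and 4 Val fragments below, of which Val-TAC is drawn in grey with the other tRNAs.

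All 6 tested fragments of the Gly-GCC-2 5′ end rose with SalB. The abundance filter asked for a level in 3 libraries, and those ending at 14, 15, 16 and 18 reached it in the SalB libraries alone. The one ending at 22 reached it there and in high fat diet replicate 2 only. They were thus tested because they were high with SalB, and the count of 6 is no independent support. The 6 fragments form a ladder from the first base of the D-loop to the D-stem. It is shown with the D-loop, from position 14 to the first A after the GG, in capitals.
ending at 14: gcattggtggttcA
ending at 15: gcattggtggttcAG
ending at 16: gcattggtggttcAGT
ending at 18: gcattggtggttcAGTGG
ending at 20: gcattggtggttcAGTGGTA
ending at 22: gcattggtggttcAGTGGTAga

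The 16-base fragment stood at 56.3, 42.6 and 111 on normal diet, 67.6, 43.4 and 86.6 under high fat diet, and 5746, 2644 and 1725 with SalB. The 3 SalB libraries all lay far above the other 6 (log2 fold change 5.22, SE 0.81, limma-voom adjusted p = 0.00110 against high fat diet). The 15-base fragment stood at 113, 171 and 69.5, at 180.2, 130.1 and 173, and at 2748, 2289.9 and 2512 (3.80, SE 0.44, limma-voom adjusted p = 0.000176). At these scaled levels SalB replicate 2, which had the lowest scaling factor (0.471), was not apart from the other SalB libraries for these 2 fragments. Per 1000000 tRNA reads it was the lowest SalB library for this 5′ end as a whole (18969, 5367 and 9369). The 14-base fragment was close to absent elsewhere, with 3 reads on normal diet, 2 under high fat diet and 101 with SalB. Its ratio of SalB to high fat diet, from pooled reads, was 49.1, with an exact 95% counting interval from 13.2 to 411 that leaves out the spread between libraries (log2 fold change 4.82, limma-voom adjusted p = 0.000881).

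Fold changes were smaller for the longer members of the ladder. The 20-base fragment stood at 338, 384 and 487, at 451, 260.3 and 318, and at 3359, 2077 and 1462 (log2 fold change 2.57, SE 0.41, limma-voom adjusted p = 0.00128). Those ending at 18 and at 22 had log2 fold changes of 2.45 and 2.32 (limma-voom adjusted p = 0.0101 and 0.0103). All SalB libraries lay above all high fat diet libraries for these 3. Both calls, at 18 and at 22, were lost without high fat diet replicate 1 (limma-voom adjusted p = 0.0632 each, with log2 fold changes of 2.14 and 2.00). They were also lost when levels were scaled to total tRNA reads (adjusted p = 0.0638 and 0.0760). That scaling moved the median of all 733 by -0.85 on the log2 scale, and all 6 fragments stayed higher under it. Whether the fold differs between ends was not tested.

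Summed over all its ends, the Gly-GCC-2 5′ end gave 907, 1224 and 1256 short reads per 1000000 tRNA reads on normal diet, 1334, 1171 and 1148 under high fat diet, and 18969, 5367 and 9369 with SalB. Its place in the short class went from 3.70 ± 0.447% and 3.75 ± 0.293% to 32.3 ± 20.9%. Its ends differed between groups as well. Those at 14 to 16, before the GG, made up 17.9%, 21.1% and 21.8% of its reads on normal diet, 28.4%, 12.1% and 21.6% under high fat diet, and 51.1%, 47.7% and 54.5% with SalB. The commonest end was 20 in 5 of the 6 diet libraries and 22 in high fat diet replicate 2. With SalB it was 16, 16 and 15. The 6 diet libraries hold 33 to 119 of these reads each, and the 95% Wilson interval of such a share reaches up to 12.6 points to either side. A read with G6T, a mismatch at the sixth base, made up 9.47 ± 3.19%, 10.2 ± 3.87% and 15.2 ± 1.97% of the reads of this end and 0% to 1.12% of those of the Gly-GCC-1 end in any library.

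The Gly-GCC-1 5′ end, which differs by T5G alone, did not follow. It gave 2763 ± 461 short reads per 1000000 tRNA reads on normal diet, 2183 ± 237 under high fat diet and 2411 ± 1311 with SalB (SD, n = 3). Ends at 14 to 16 made up 6.42 ± 2.30%, 10.7 ± 0.938% and 8.13 ± 1.88% of its reads. Its most abundant fragment, gcatgggtggttcAGTGGTA, stood at 816, 1365 and 1404, at 833, 824 and 779.5, and at 1166, 472 and 637, and was not called (log2 fold change -0.20, SE 0.39, limma-voom adjusted p = 0.695). Its 18-base fragment was not called either (0.56, limma-voom adjusted p = 0.315). Its 22-base fragment was called higher against high fat diet (1.35, SE 0.48, limma-voom adjusted p = 0.0468) but not against normal diet (0.47, limma-voom adjusted p = 0.334). That call was lost under 12 of 18 other settings, with adjusted p from 0.0224 to 0.624. Among them were the removal of normal diet replicate 1 (0.0644) or 2 (0.0581), of high fat diet replicate 1 (0.109), 2 (0.0777) or 3 (0.168), and of SalB replicate 1 (0.0716) or 3 (0.0559).

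**Figure D4:**
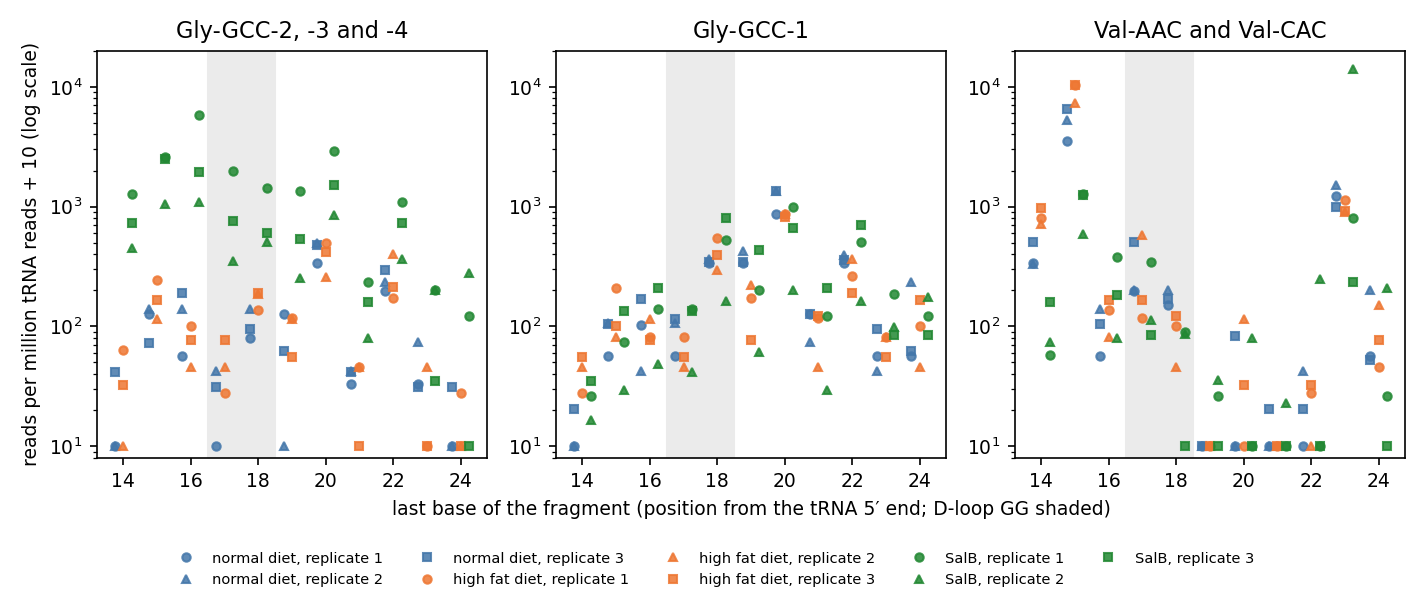
Reads per 1000000 tRNA reads, plus 10 so that zeros can be drawn (y axis, log scale), by last base (x axis) for the Gly-GCC-2, -3 and -4 end (left), the Gly-GCC-1 end (middle) and the Val-AAC and Val-CAC end (right). Points are the 9 libraries and the grey band is the GG; the SalB points (green) lie above all diet points at 14 to 20 on the left, mix with them in the middle, and lie below them at 14 and 15 on the right, where SalB replicate 2 is highest at 23.

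The ratio of Gly-GCC-2 to Gly-GCC-1 reads compares these 2 ends within each library and needs no scaling. For short fragments it was 0.406, 0.400 and 0.419 on normal diet, 0.544, 0.559 and 0.573 under high fat diet, and 6.49, 5.83 and 2.76 with SalB. The order of the ends was reversed with SalB, and the 3 groups did not overlap. For long 5′ fragments of 28 to 36 bases, which end in or near the anticodon loop, the ratio was 6.55, 9.78 and 11.3 on normal diet, 6.73, 4.62 and 6.93 under high fat diet, and 4.92, 9.66 and 6.22 with SalB. The groups overlapped there. The number of short reads per long read was 0.0115 to 0.0427 for the Gly-GCC-2 end in the 6 diet libraries and 0.205 to 0.60 in the SalB libraries. For the Gly-GCC-1 end these ranges were 0.190 to 0.379 and 0.340 to 0.548. These ratios were chosen after their values were seen and are given without a test.

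**Figure D5:**
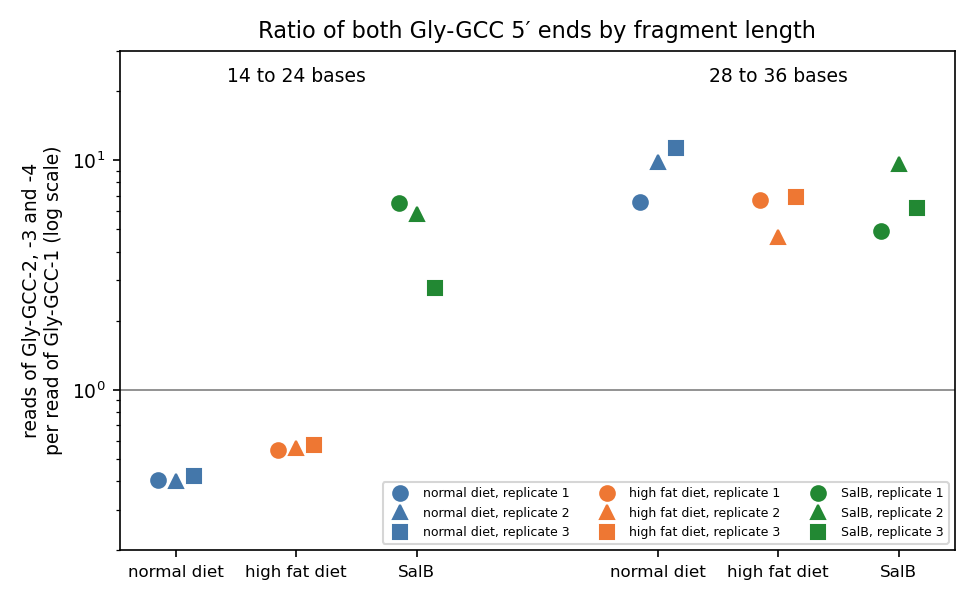
Reads of the Gly-GCC-2, -3 and -4 5′ end per read of the Gly-GCC-1 5′ end (y axis, log scale; the line marks 1) in fragments of 14 to 24 bases (left) and of 28 to 36 bases (right), 1 point per library. Short-fragment ratios lie under 0.6 in the 6 diet libraries and above 2.7 with SalB, while long-fragment ratios run from 4.62 to 11.3 with overlapping groups.

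Val fragments that end before the GG fell with SalB. The 15-base fragment, gtttccgtagtgtAG, was the most abundant short fragment of both diet groups. It stood at 3518, 5928 and 7592 on normal diet, 9686, 7244 and 9758 under high fat diet, and 1610.0, 1723 and 1537 with SalB. All 3 SalB libraries lay below the other 6 (log2 fold change -2.44, SE 0.33, limma-voom adjusted p = 0.000477 against high fat diet). The fragment ending at 14 fell by 2.54 and the 15-base fragment with G15A by 2.39 on the log2 scale (limma-voom adjusted p = 0.00605 and 0.00231). None of these 3 calls was lost under any setting in which the fragment was tested. The changed base of the G15A sequence is the last of its read, and whether it shares its origin with the unchanged fragment was not tested. Val-TAC, whose first 26 bases differ from those of Val-CAC-2-1 by T2G, G7A and T16C, also gave a 15-base fragment, ggttccatagtgtAG, that fell (-1.42, SE 0.48, limma-voom adjusted p = 0.0390). That call was lost under 9 of 19 settings, with adjusted p up to 0.145. The libraries whose removal ended it were normal diet replicate 3 (0.0532), high fat diet replicates 1, 2 and 3 (0.0709, 0.0831 and 0.0750) and SalB replicates 1, 2 and 3 (0.132, 0.145 and 0.0607).

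Val fragments that end on or past the GG did not pass. The fragment ending at 17 stood at 135, 564 and 202 on high fat diet and 416, 307 and 112 with SalB (log2 fold change 0.36, SE 0.67). The fragment ending at 23, gtttccgtagtgtAGTGGTTAtc, stood at 1126, 1279 and 1001 on normal diet, 1036, 868 and 866 under high fat diet, and 1055, 45161 and 187 with SalB (log2 fold change 1.24, SE 1.43, limma-voom adjusted p = 0.513). SalB replicate 2 held 1913 of its 2194 reads, whereas SalB replicate 3 was below every other library. In SalB replicate 2 only 4.66% of the reads of the Val end stopped before the GG, against 57.5% and 84.0% in SalB replicates 1 and 3. On high fat diet the 3 values were 89.1%, 82.4% and 90.0%.

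SalB replicate 2 also stood alone for a Ser fragment. The 18-base Ser-AGA and Ser-TGA fragment, gtagtcgtggccgAGTGG, stood at 383, 564 and 404 on high fat diet and 805, 13456 and 225 with SalB (log2 fold change 1.72, SE 1.16, limma-voom adjusted p = 0.261). The 18-base Ser-CGA fragment stood at 248, 607 and 289 and at 139, 543 and 187, with overlap. Of the other tested fragments, those of Gly-CCC-1, Asp-GTC, Glu, Ser-GCT, Tyr-GTA and Leu-CAG were not called. The Gly-CCC-1 fragment ending at 14 came nearest (log2 fold change -1.18, SE 0.47, limma-voom adjusted p = 0.0723), and its adjusted p was under 0.05 in 6 settings, 0.00984 at the lowest. The 16-base Tyr-GTA fragment was the steadiest, at 197, 384 and 514 on normal diet, 383, 521 and 491 under high fat diet, and 333, 401 and 487 with SalB.

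SalB against normal diet called 9 of the 26, or 34.6%, where 39.0% of all 733 were called. Of these 7 rose (20.5% of all 733 rose) and 2 fell (18.6% of all 733 fell), and an unadjusted p under 0.05 was met by 12 and groups without overlap by 13 (50.3% of all 733 for each). Scaled to total tRNA reads alone, 5 rose and 11 fell, and the median of all 733 moved by -0.88 on the log2 scale. The 6 fragments of the Gly-GCC-2 end rose by 5.19, 4.61, 5.09, 3.63, 2.38 and 1.84 on the log2 scale, from the end at 14 to that at 22 (limma-voom adjusted p from 4.54e-05 to 0.0131). As in the comparison above, those ending at 14, 15, 16 and 18 passed the abundance filter through the SalB libraries alone. The Ala-AGC fragment ggggaattagctcAAA rose, with 472, 472 and 337 in the SalB libraries (2.39, SE 0.57, limma-voom adjusted p = 0.00732). It was not called against high fat diet (0.63). Scaled to total tRNA reads, this call and that of the Gly-GCC-2 fragment ending at 22 were lost (adjusted p = 0.0964 and 0.147). The Val fragments ending at 15 and at 14 fell by 1.75 and by 1.83 (limma-voom adjusted p = 0.00257 and 0.0235). The second of these calls was lost without normal diet replicate 3 (0.0698) and without SalB replicate 1, 2 or 3 (0.0991, 0.0699 and 0.0504).

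Without SalB replicate 2, 3 fragments rose and 3 fell against high fat diet (21 members tested), and 3 rose and 1 fell against normal diet. Without SalB replicate 1 the counts were 2 and 3 (20 members tested), and 2 and 1. Fewer members reach the abundance filter in these fits, and the shares of all sequences called in them are not given here. Without high fat diet replicate 1, 4 rose and 3 fell against high fat diet.

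The families known to give serum 5′ fragments (Gly-GCC, Gly-CCC, Glu-CTC, Glu-TTC, Val-CAC, Val-AAC, Lys-CTT, Lys-TTT, His-GTG and Asp-GTC) held 948 of the 1871 sequences and 71.1% of reads as a mean over libraries, from 47.5% in SalB replicate 2 to 80.8% in SalB replicate 1. Of their 19 tested members 7 rose and 3 fell with SalB against high fat diet, with a median log2 fold change of 0.36. Of all 733 sequences 17.6% rose and 16.6% fell, with a median of -0.15. The 7 that rose were the fragments of Gly-GCC 5′ ends given above, some of them tested only through the SalB libraries. The count thus does not describe the other families. Sequences that begin with at least 4 guanines, as in Ala and Cys tRNAs, held 177 members and 4.93% of reads, with 19.2% in SalB replicate 2. Their 1 tested member was the Ala-AGC fragment given above.

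Mismatches were common in these short reads. No mismatch was found in 68.9% of reads as a mean over libraries, 14.3% differed at the last base only and 16.8% at another base. In SalB replicate 2 this latter share was 37.8%, against 10.1% to 20.9% elsewhere. Leaving aside the Ala-aligned reads with an inner mismatch, it was 15.5% there. With those Ala-aligned reads removed, position 23 took 39.5% of the short 5′ reads of SalB replicate 2 and position 15 took 8.48%.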

How the data were processed

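Serum RNA was extracted with TRIzol, made into libraries with a tRF and tiRNA kit by ligating both adapters, size-selected on a gel and sequenced on a NextSeq 500, per the labels' protocols. FastQC, cutadapt, Bowtie, edgeR and mm10 are named, without roles or versions, per the submitters' processing notes. The authors deposited 1 alignment list per library, in which the read count of each distinct sequence stands inside its read name. Reads have 14 to 40 bases and at most 1 mismatch. Only tRNA reads are listed, so their totals are not library depths.

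The reads of a sequence were counted once, however many references it met. Shares were compared by exact permutation tests, computed from their definition in Python 3.11.15. Wilson intervals came from scipy 1.17.1. References (217) were rebuilt from the reads, with 0 conflicting bases. The D-loop starts at position 14, and the GG is the first whose first G lies at 16 to 20. Fits used limma-voom (limma 3.58.1, R 4.3.3) on all 9 libraries in 1 model, trimmed means of M values computed from their definition (factors 0.471 to 1.21), and sequences that reached, in 3 libraries or more, what 10 reads are at the median of 44415 reads, and held 15 or more in total. The procedure was tested on simulated data. Within groups, libraries differed by more than sampling noise (chi-square per degree of freedom 1.78 to 26.1). Named fragments were the 12 most abundant, up to 8 called per direction without overlap (or the 3 smallest p), the most abundant of each family with at least 1% of reads, the sums at each end position and just outside the limits, and others among the 26 tested, chosen after their values were seen. The members and lists were chosen with earlier results of these data known. Sequences are from the deposited reads, and no genome was used. Alternatives were other scalings, filters, merges, a replicate block and leaving out each library.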

Additional observations from a re-analysis of the deposited data

How the results depend on the processing

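Of the 26 tested fragments in 3 comparisons, no called fragment changed direction under any alternative, and those whose calls were lost are given with their values above. Over the alternatives, 1256 fitted values kept their side of the threshold, 31 lost a call and 38 gained one. Without a filter on low counts 4, 91 and 84 fragments of 1871 were called (first high fat diet against normal diet, then SalB against the high fat and against the normal diet). The share of all sequences called under these alternatives is not given here. The counts in this paragraph therefore do not compare the short fragments with the rest. With 10 reads in at least 6 libraries 5 and 4 of 13 were called in both SalB comparisons, and with reads of a single family 7 in SalB against high fat diet. Scaled to total tRNA reads, 4 rose and 8 fell in SalB against high fat diet, and 16 were called (5 up, 11 down) in SalB against normal diet. With mismatch variants merged 16 were called there. Leaving out each library in turn gave 5 to 10 and 3 to 11 called fragments. The numbers do not pair the libraries (correlations of same-numbered libraries from -0.323 to 0.151, best with their own number in 3 of 18 cases), and with the replicate block 0, 9 and 10 were called. The block left the share differences at the same means, with exact sign-flip p from 0.25 up, the smallest possible.

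Share differences that were not called changed sign as follows, in percentage points, and the cause was not tested. For short reads of all tRNA reads, high fat diet minus normal diet was -0.14 with reads of a single family, -0.0905 with each sequence counted once and -0.35 with 16 to 24 bases. SalB minus high fat diet was -0.15 without mismatched reads and -0.38 without the most abundant family. SalB minus normal diet was -0.00547 with a single family and -0.17 without the most abundant family. For ends before the GG, SalB minus high fat diet was 3.32 with a single family and 2.89 with 16 to 24 bases, and SalB minus normal diet 8.19, 2.27 (each sequence once) and 3.19. For ends past the loop, high fat diet minus normal diet was 0.438 (each sequence once) and 1.42 (16 to 24 bases). SalB minus high fat diet was -1.79 (single family) and -3.50 (16 to 24 bases). SalB minus normal diet was 0.0558 without mismatched reads, 2.17 with each sequence once, 0.722 without the most abundant family, and, chosen after seeing the data, 0.134 without the Ala-aligned reads mismatched before the last base and 4.53 with the first A as loop end. The mean end moved to 0.0742 (high fat diet minus normal diet) and -0.0619 (SalB minus high fat diet) bases with 16 to 24 bases, to -0.136 and -0.383 (SalB minus each diet) with a single family, and to -0.0183 (SalB minus normal diet) with each sequence once. For short reads of nuclear 5′ reads, SalB minus high fat diet was -4.60 without the most abundant family.

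Leaving out each library in turn, the share of tRNA reads ranged from -0.104 to 0.530, from -0.0891 to 1.36 and from 0.0846 to 1.54 (in the order of comparisons above), ends before the GG in SalB minus normal diet from -6.05 to 1.04, ends past the loop from -0.498 to 4.25 and from -2.48 to 2.27 in both SalB comparisons, and the mean end in SalB minus normal diet from -0.0392 to 0.510 bases. At this depth 1845 members were too rare to test.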
